A study of Mus musculus with 9 samples.

Results

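The genes described here are 38 of the 14444 genes measured in mouse prefrontal cortex, namely those whose products fill, dock, prime, fuse and recover synaptic vesicles. They were taken by symbol from a fixed list, made with earlier results of these data known, and all 38 were found. Total RNA, depleted of ribosomal RNA, was sequenced from mice aged 5 to 8 postnatal weeks in 3 groups of 3 libraries. The first group was wild type and received saline, the second carried a Shank3 mutation and received saline, and the third carried the same named genotype and received UNC0642 by intraperitoneal injection, 1 mg per kg daily over 3 days. UNC0642 inhibits EHMT1 and EHMT2, enzymes that methylate lysine 9 of histone H3, and Shank3 is a scaffold of the excitatory postsynapse. The labels give neither the Shank3 allele nor the strain, and do not say whether replicates are separate animals; the p-values therefore measure a spread between libraries that may be technical.

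At a presynaptic terminal, transporters load vesicles with transmitter and synapsins tether them. Scaffold proteins of the active zone, among them bassoon, piccolo, RIM and ELKS proteins, hold vesicles and calcium channels together, and Munc13 proteins prime the vesicles. Fusion is carried out by the SNARE proteins syntaxin, SNAP-25 and synaptobrevin, is held ready by complexins and is triggered by calcium through synaptotagmins. NSF and its SNAP adaptors then take the SNARE complex apart, and dynamin, amphiphysin and synaptojanin retrieve the membrane. Shank3 lies on the postsynaptic side of the cleft, across from these proteins.

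The libraries held between 12035098 and 16165483 reads on genes, recovered from the deposited values as given with the processing, and each member had between 62 and 46415 reads in a library. Shank3 itself was at 295, 309 and 357 in wild type, 337, 348 and 321 in saline mutants and 294, 298 and 319 in UNC0642 mutants RPM (reads per 1000000 reads on genes; replicates 1, 2 and 3 here and below); the ranges overlap, and with the allele not given this gene total does not check the genotype. The recovered reads fell on 2 sides that were not the groups: the 3 wild-type libraries and UNC0642 replicate 3 against the 3 saline mutants and UNC0642 replicates 1 and 2. Over all genes, UNC0642 replicate 3 lay nearer the wild-type mean than the saline mutant mean for 67.7%, against 27.2% and 29.6% for the other treated libraries, and for 27 of 38 members, against 1 and 7. The deposited values had been shifted gene by gene so that wild type with UNC0642 replicates 2 and 3 has the same mean log2 value as the saline mutants with UNC0642 replicate 1, a step no label mentions; that division differs from the one in the recovered reads on UNC0642 replicate 2. The comparisons below use the reads before that shift; genotype and side of the division can be told apart only through UNC0642 replicate 3, and the counts of members called are given on the deposited values too. Summed over the neuron marker list, the wild-type libraries had 4734 to 5187 RPM and the saline mutants 4907 to 4997. Of its 10 genes, 5 had log2 differences above 0 between these groups, and 2 passed the test as higher and 2 as lower. The upper-layer cortical list was measured in full, with 744 to 849 in the saline mutants and 746 to 762 in wild type. The deep-layer list had 505 to 656 in wild type, 622 to 673 in saline mutants and 586 to 785 in UNC0642 mutants. Of its 9 genes, 5 were above 0 between saline mutants and wild type, and 1 passed as higher and 1 as lower. Markers of other cells moved with the comparison of saline mutants with wild type. Oligodendrocyte markers were below 0 for 9 of 9 (1 passed; summed RPM 2980 to 4941 in wild type, 1528 to 3516 in saline mutants and 2590 to 4958 in UNC0642 mutants) and oligodendrocyte precursor markers for 7 of 7 (1 passed; 349 to 520, 301 to 359 and 291 to 426). Astrocyte markers were below 0 for 8 of 10 (0 passed; 5572 to 7568, 4811 to 5223 and 4291 to 7219), and meningeal fibroblast markers above 0 for 10 of 10 (0 passed; 102 to 172, 150 to 180 and 116 to 258). Markers of interneurons other than parvalbumin cells were above 0 for 6 of 9 (2 passed; 808 to 845, 973 to 1100 and 905 to 987). Endothelial and mural markers were below 0 for 7 of 10 (2 passed as lower, with 300 to 391, 246 to 315 and 272 to 308). Microglia markers were below 0 for 7 of 9 (0 passed, with 464 to 669, 466 to 525 and 468 to 590). The part of these markers in the members' differences was not tested.

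The 38 genes together took 23316, 22058 and 19327 RPM in wild type, 23182, 22381 and 23449 in saline mutants and 23374, 23035 and 20926 in UNC0642 mutants. Wild-type replicate 3 and UNC0642 replicate 3 had the lowest sums. Per kilobase of exon, the median member stood at 64.99 RPM per kilobase in wild type, against 5.63 for the 13895 genes with a length. The order was led by Snap25 (386 ± 73.9, mean ± SD, n = 3), Slc17a7 (291 ± 35.1), Cplx1 (284 ± 26.3), Vamp2 (274 ± 25.2) and Cplx2 (263 ± 14.2), and each of these overlapped its neighbour in the order over the wild-type libraries. It ended with Unc13b (2.97 ± 0.447), Slc17a6 (1.76 ± 0.169) and Syt2 (1.62 ± 0.416), of which the last 2 overlapped. By role, the median level per kilobase was 137 for SNAREs, 96.3 for vesicle proteins and transporters, 94.7 for SNARE regulators, 68.9 for synaptotagmins, 58.4 for endocytosis genes and 15.2 for active zone and priming genes.

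**Figure D1:**
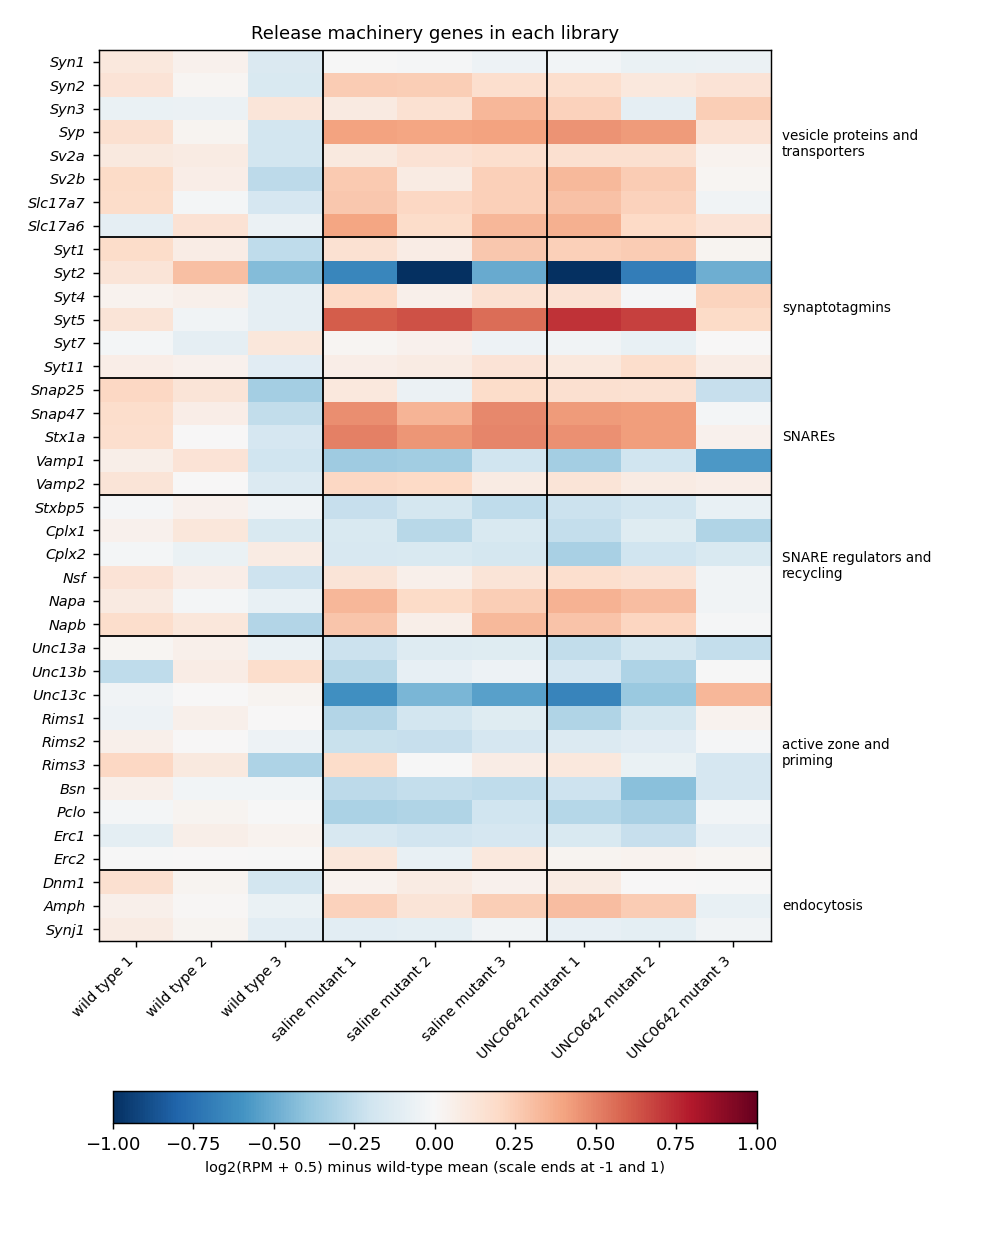
Colour gives log2(RPM + 0.5) of each gene in each library minus the mean of the 3 wild-type libraries, with genes grouped by role and libraries by group. Syt5, Stx1a, Snap47 and Syp are red in the 3 saline mutants and in UNC0642 replicates 1 and 2, most active zone genes are blue there, and UNC0642 replicate 3 is pale for many of these genes.

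Between saline mutants and wild type, 4 vesicle and fusion genes rose and 2 other members fell. Syp, Syt5, Snap47 and Stx1a were higher, by 0.40 to 0.60 on the log2(RPM + 0.5) scale, and Syt2 and Pclo were lower (limma, Benjamini-Hochberg adjusted p under 0.05). These 6 of 38 members stand beside 2013 of 14444 genes, 13.9%, that passed the same test, 6.22% of all genes higher and 7.71% lower. The share of members called is thus near that of all genes. Of the 38 differences 23 were above 0, with a median of 0.08, where 48.5% of all genes were above 0, with a median of -0.01. The ranges of the 2 groups did not overlap for 22 members (10 higher and 12 lower in the mutants), against 40.7% of all genes. On the deposited values 0 of 38 members passed, as did 0% of all genes, with 0 members at an unadjusted p under 0.05. The shift in those values had set equal means on 2 sides, with all wild-type libraries on one and all saline mutants on the other. It thus took out much of any difference between these groups, so the lack of calls there cannot decide on it. With the side of the division as a term it was also 0 members and 0%, with 3 members under 0.05 unadjusted. That term is estimated only from UNC0642 replicate 3 against UNC0642 replicates 1 and 2. A single library thus sets the correction, and the lack of calls with it cannot decide on a difference either. Calls also rested on single libraries: 15 members passed without UNC0642 replicate 3 (25.2% of all genes), 2 without wild-type replicate 3 (4.71% of all genes) or saline mutant replicate 2 (5.89%), and 0 without wild-type replicate 2, saline mutant replicate 1 or saline mutant replicate 3, where 13, 18 and 30 of all genes passed and 12, 10 and 14 members had an unadjusted p under 0.05. Over 19 alternatives Syt5 was called in 14, Stx1a in 13, Syp and Snap47 in 12, Syt2 in 11 and Pclo in 8. Some of these could change little. The low-value filter removed no gene, and leaving out an UNC0642 library left the differences themselves as they were.

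Syp encodes synaptophysin, an abundant membrane protein of the vesicle and a partner of synaptobrevin. Its RPM were 1479, 1346 and 1164 in wild type, 1751, 1737 and 1753 in saline mutants and 1807, 1774 and 1460 in UNC0642 mutants. The saline mutants lay within a narrow band above every wild-type library, UNC0642 replicates 1 and 2 lay above that band, and UNC0642 replicate 3 lay within the wild-type range. The log2 difference of saline mutants from wild type was 0.40 ± 0.11 (SE; limma, adjusted p = 0.0286).

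Syt5, a synaptotagmin related to the calcium sensor Syt1, had RPM of 171, 153 and 148 in wild type, 239, 244 and 231 in saline mutants and 259.6, 253 and 179 in UNC0642 mutants. Neither mutant group overlapped wild type, and UNC0642 replicate 3 was apart from the other treated libraries, just above the wild-type range. This was the largest rise among the members, 0.60 ± 0.12 (SE; limma, adjusted p = 0.0156), or 1.52-fold. On the deposited values the same difference was 0.14 ± 0.11 (SE; limma, adjusted p = 1), and over the 19 alternatives its adjusted p ran from 8.57e-05 to 1.

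Stx1a, the plasma-membrane syntaxin of the fusion complex, had RPM of 409, 364 and 324 in wild type, 517, 494 and 509.6 in saline mutants and 501, 486 and 374 in UNC0642 mutants. Snap47, a relative of SNAP-25 that is found on intracellular membranes, was at 381, 353 and 285 in wild type, 466, 426 and 471 in saline mutants and 454, 449.9 and 334 in UNC0642 mutants. In both genes the saline mutants and UNC0642 replicates 1 and 2 lay above all wild-type libraries, while UNC0642 replicate 3 fell within the wild-type range. The log2 differences of saline mutants from wild type were 0.48 ± 0.11 for Stx1a (SE; limma, adjusted p = 0.0197) and 0.43 ± 0.12 for Snap47 (SE; limma, adjusted p = 0.0389). With the side of the division as a term that of Snap47 became -0.009.

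Pclo encodes piccolo, one of the giant scaffolds of the active zone. Its RPM were 401, 413 and 405 in wild type, 326, 329.6 and 354 in saline mutants and 333, 324 and 399 in UNC0642 mutants. All saline mutants and UNC0642 replicates 1 and 2 lay below wild type, and UNC0642 replicate 3 lay just under it. The log2 difference was -0.27 ± 0.08 (SE; limma, adjusted p = 0.046), and 0.008 with the side of the division as a term.

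Syt2 is the fast calcium sensor of parvalbumin interneurons and of many hindbrain and spinal synapses, and was the lowest member per kilobase. Its RPM were 13.3, 15 and 8.84 in wild type, 7.49, 4.07 and 8.37 in saline mutants and 5.8, 7.3 and 8.46 in UNC0642 mutants, from 62 to 199 reads. Wild-type replicate 3 lay close above the highest saline mutant, and all UNC0642 libraries lay below wild type. The log2 difference was -0.88 ± 0.25 (SE; limma, adjusted p = 0.0393), the largest of the members in size, and it rested on few reads. Of the 9 genes listed for parvalbumin interneurons, 9 were below 0 in the same comparison. The list is not particular to these cells, as Gad1 and Gad2 in it serve GABA synthesis in interneurons at large. Slc32a1, the vesicular GABA transporter, is outside the list and was above 0 without passing (0.15 ± 0.08, SE, limma adjusted p = 0.23). The 3 that passed were Gad1, Kcnc1 and Kcnc2 (limma, adjusted p = 0.0297, 0.0213 and 0.0249). The summed level of the 9 was 940 to 996 RPM in wild type, 752 to 791 in saline mutants and 723 to 953 in UNC0642 mutants. Gad1 alone held 302 to 330.5 RPM of the wild-type sums. Each of the 9 reached 1 RPM in some library. Pvalb itself was at 36.1, 41.9 and 32.2 in wild type, 28.6, 22 and 31.3 in saline mutants and 21.01, 26.8 and 26.0 in UNC0642 mutants. It did not pass (-0.43 ± 0.15, SE, limma adjusted p = 0.062). The list of other interneuron markers was above 0 for 6 of 9. In bulk tissue fewer cells of a type and less RNA per cell cannot be told apart, and the part of these markers in the Syt2 difference was not tested.

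**Figure D2:**
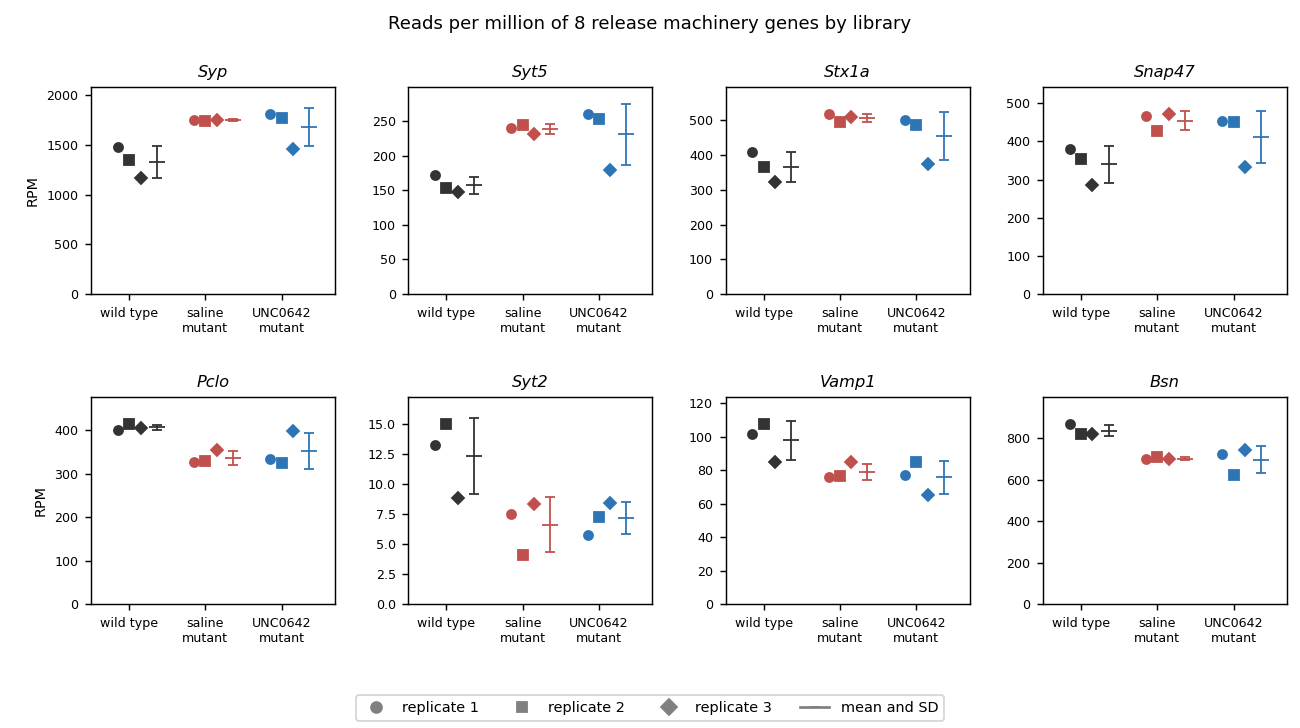
Level in RPM of 8 genes (vertical axes from 0) in the 3 libraries of each group, with the symbol giving the replicate and the bar the group mean and SD. For Syp, Syt5, Stx1a, Snap47 and Pclo the diamond of UNC0642 replicate 3 lies at or beside the wild-type points; for Syt2, Vamp1 and Bsn it lies with the saline mutants.

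The bases before the RefSeq start sites (GRCm38.p6) are shown for 4 of the genes called, those with a single window in the table, and for Syn1, the only member with a cAMP response element in its window. Each run is the 250 bases upstream of the start, 5′ to 3′ on the gene's strand, with matches to GGGCGG (GC box) or TGACGTCA (cAMP response element) on either strand in capitals. They are Syp (chrX:7638330-7638579, plus strand), Stx1a (chr5:135023232-135023481, plus), Snap47 (chr11:59450035-59450284, minus), Pclo (chr5:14514668-14514917, plus) and Syn1 (chrX:20920919-20921168, minus).
Syp: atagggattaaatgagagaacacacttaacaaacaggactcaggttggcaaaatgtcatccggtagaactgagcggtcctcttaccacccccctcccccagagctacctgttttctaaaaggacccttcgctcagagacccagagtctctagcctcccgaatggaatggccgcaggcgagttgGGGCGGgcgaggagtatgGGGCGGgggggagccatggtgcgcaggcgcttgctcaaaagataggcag
Stx1a: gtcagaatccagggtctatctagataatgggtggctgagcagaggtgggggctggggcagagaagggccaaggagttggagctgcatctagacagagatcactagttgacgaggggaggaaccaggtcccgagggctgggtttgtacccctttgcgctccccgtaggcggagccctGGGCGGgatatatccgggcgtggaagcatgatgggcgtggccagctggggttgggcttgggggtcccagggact
Snap47: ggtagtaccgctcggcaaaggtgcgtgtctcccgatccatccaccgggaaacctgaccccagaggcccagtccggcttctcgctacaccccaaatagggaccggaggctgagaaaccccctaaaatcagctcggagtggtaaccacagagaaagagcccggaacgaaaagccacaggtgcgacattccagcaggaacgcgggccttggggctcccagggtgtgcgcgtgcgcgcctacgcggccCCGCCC
Pclo: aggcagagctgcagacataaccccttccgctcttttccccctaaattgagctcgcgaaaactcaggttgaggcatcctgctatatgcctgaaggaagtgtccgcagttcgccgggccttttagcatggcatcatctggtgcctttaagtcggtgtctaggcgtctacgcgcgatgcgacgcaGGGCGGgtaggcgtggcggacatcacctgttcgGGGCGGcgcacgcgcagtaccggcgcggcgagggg
Syn1: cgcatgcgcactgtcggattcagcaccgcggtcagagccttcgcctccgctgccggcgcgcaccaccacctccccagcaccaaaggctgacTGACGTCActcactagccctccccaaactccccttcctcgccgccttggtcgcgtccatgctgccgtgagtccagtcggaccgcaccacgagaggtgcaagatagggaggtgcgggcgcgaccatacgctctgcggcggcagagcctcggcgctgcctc
GC boxes numbered 2 in Syp, 1 in Stx1a, 1 in Snap47 and 2 in Pclo, and none in Syn1, so the genes that rose and the gene that fell both carry them. The 31 members in the table have 39 windows, of which 23 had a GC box (in 22 members), 4 had the E-box CACGTG (Napa, Nsf, Sv2b and Unc13b) and 1 had TGACGTCA. Of all 32851 windows of this length, 32.7% had a GC box, 6.02% the E-box and 1.55% the cAMP response element; no printed match overlapped another. GC content was 56.4% for Syp, 62% for Stx1a, 64% for Snap47, 61.2% for Pclo and 68% for Syn1, against a median of 52.4% over all windows. These matches describe letters only.

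Among the vesicle proteins and transporters, 7 of 8 differences between saline mutant and wild type were above 0, with a median of 0.21, and Syp alone passed. Syn1 and Syn2 encode synapsins, which bind vesicles to one another. Syn1 had RPM of 686, 656 and 577 in wild type, 635, 633 and 615 in saline mutants and 625, 609 and 611 in UNC0642 mutants, and Syn2 of 714, 658 and 583 in wild type, 774, 770.1 and 728 in saline mutants and 728, 699 and 714 in UNC0642 mutants. Syn1 overlapped between all groups, whereas Syn2 was above wild type in all 3 saline mutants (log2 difference 0.22 ± 0.08, SE; limma, adjusted p = 0.0823). Syn3, the synapsin of early development, was far lower, at 48.3, 48.5 and 54.8 in wild type, 53.9, 56.2 and 63.7 in saline mutants and 59.2, 47.3 and 60.0 in UNC0642 mutants.

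The vesicle glycoproteins Sv2a and Sv2b were at similar levels. Sv2a had RPM of 495, 489 and 406 in wild type, 495, 512 and 518 in saline mutants and 516, 516 and 473 in UNC0642 mutants, and Sv2b of 799.6, 735 and 584 in wild type, 842, 742 and 828 in saline mutants and 876, 836 and 708 in UNC0642 mutants. Saline mutants and wild type overlapped for both genes. The glutamate transporters differed by over 100-fold: Slc17a7, which loads glutamate in cortical pyramidal cells, had 1768, 1542 and 1392 in wild type, 1882, 1801 and 1840 in saline mutants and 1907, 1834 and 1521 in UNC0642 mutants, and Slc17a6, the transporter of thalamic and other subcortical cells, had 8.89, 10.6 and 9.08 in wild type, 12.6, 10.8 and 12.1 in saline mutants and 12.3, 10.9 and 10.5 in UNC0642 mutants. In both the saline mutants lay above wild type and UNC0642 replicate 3 lay below them. The differences, 0.24 ± 0.11 for Slc17a7 and 0.30 ± 0.14 for Slc17a6 (SE), did not pass (limma, adjusted p = 0.137 and 0.142). The thalamic and subcortical marker list summed to 130 to 154 RPM in wild type, 117 to 120 in saline mutants and 119 to 159 in UNC0642 mutants, the other way from Slc17a6.

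Of the 6 synaptotagmins, Syt5 rose, Syt2 fell and the other 4 did not pass. Syt1, the main calcium sensor for fast release in forebrain, had RPM of 1806, 1675 and 1333 in wild type, 1766, 1679 and 1919 in saline mutants and 1882, 1895 and 1618 in UNC0642 mutants. Syt7, a slow high-affinity sensor, had 470, 448 and 517 in wild type, 485, 492 and 461 in saline mutants and 466, 454 and 478 in UNC0642 mutants. Syt11 and Syt4, which bind calcium poorly and act in membrane traffic, had 896, 879 and 789 in wild type, 892, 902 and 939.8 in saline mutants and 918, 962 and 898 in UNC0642 mutants, and 286, 288 and 262 in wild type, 319, 289 and 309 in saline mutants and 308, 276 and 324 in UNC0642 mutants, respectively. Saline mutants and wild type overlapped for Syt1, Syt7 and Syt11, and the saline mutants lay just above wild type for Syt4. For Syt11 the UNC0642 mutants all lay above wild type, by a narrow margin. Wild-type replicate 3 was the lowest of its group for Syt1, Syt4 and Syt11 and the highest for Syt7.

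In the SNARE group 2 of 5 genes rose, Stx1a and Snap47. Snap25, the most abundant member per kilobase, had RPM of 2987, 2833 and 2051 in wild type, 2780, 2480 and 2948 in saline mutants and 2894, 2871 and 2204 in UNC0642 mutants, and its ranges overlapped. The synaptobrevins Vamp2, which drives release in most forebrain terminals, and Vamp1, which is prominent in fast-spiking interneurons and caudal regions, had 1139, 1041 and 948 in wild type, 1202, 1194 and 1101 in saline mutants and 1136, 1099 and 1091 in UNC0642 mutants, and 102, 107 and 85.0 in wild type, 76.3, 76.4 and 84.7 in saline mutants and 77.1, 84.9 and 65.4 in UNC0642 mutants, respectively. Vamp1 was below every wild-type library in the 6 mutant libraries, though by only a narrow margin in saline mutant 3 and UNC0642 replicate 2 against wild-type replicate 3. Its log2 difference of -0.30 ± 0.11 (SE; limma, adjusted p = 0.0753) did not pass. Wild-type replicate 3 was the lowest wild-type library for 27 of 38 members, against 31.8% of all genes.

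Among the SNARE regulators and recycling factors, none passed and 3 of 6 were above 0. Complexins clamp and promote fusion; Cplx1 had RPM of 638, 669.8 and 558 in wild type, 558, 511 and 558 in saline mutants and 526, 572 and 503 in UNC0642 mutants, and Cplx2 of 1282, 1238 and 1374 in wild type, 1163, 1165 and 1149 in saline mutants and 1033, 1131 and 1168 in UNC0642 mutants. Both were lower in all saline mutants than in wild type, by a narrow margin for Cplx1, and in all UNC0642 libraries but 1 for Cplx1. Napa and Napb encode the adaptors that bring NSF to used SNARE complexes. Napa had 216, 199.9 and 192 in wild type, 256, 232 and 241 in saline mutants and 258, 251 and 198 in UNC0642 mutants, and Napb had 633, 606 and 458 in wild type, 680.5, 582 and 703 in saline mutants and 684, 650.3 and 556 in UNC0642 mutants. For Napa the saline mutants stood above wild type (0.26 ± 0.10, SE; limma, adjusted p = 0.0852), and for Napb the groups overlapped. Stxbp5, tomosyn, which competes for syntaxin, had a log2 difference of -0.22 ± 0.07 (SE; limma, adjusted p = 0.0532) and Nsf one of 0.10 ± 0.10 (SE; limma, adjusted p = 0.464).

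In the active zone and priming group 8 of 10 differences were below 0, with a median of -0.19, and Pclo alone passed. All 10 genes have 7362 to 22746 bases of exon. They fall in the longest of 4 length classes of all genes, whose median difference was -0.18. Bsn, which encodes bassoon, had RPM of 865, 819 and 819.7 in wild type, 697, 707 and 699 in saline mutants and 724, 623 and 741 in UNC0642 mutants. All 6 mutant libraries lay below all wild-type libraries, including UNC0642 replicate 3. The log2 difference of Bsn between saline mutant and wild type, -0.25 ± 0.08 (SE; limma, adjusted p = 0.0504), was just over the threshold.

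The RIM proteins link vesicles to calcium channels. Rims1 had RPM of 210.2, 225 and 218 in wild type, 178, 191 and 199.7 in saline mutants and 176, 192 and 224 in UNC0642 mutants, and Rims2 of 138, 134 and 129 in wild type, 114, 114 and 118 in saline mutants and 121, 123 and 132 in UNC0642 mutants. Rims3, a short form that lacks the vesicle-binding part, had 44.5, 41.2 and 31.0 in wild type, 43.8, 38.4 and 40.5 in saline mutants and 41.4, 36.8 and 34.2 in UNC0642 mutants. Rims1 and Rims2 were lower in all saline mutants than in wild type, and Rims3 overlapped. The log2 differences were -0.20 ± 0.09 for Rims1 and -0.21 ± 0.07 for Rims2 (SE; limma, adjusted p = 0.13 and 0.0606).

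Munc13 proteins open syntaxin and prime vesicles. Unc13a, the main form of forebrain glutamatergic terminals, had RPM of 518, 530.3 and 488 in wild type, 442, 469.5 and 469.9 in saline mutants and 432, 452 and 435 in UNC0642 mutants. Unc13b had 56.2, 70.6 and 75.8 in wild type, 55.2, 63.1 and 64.8 in saline mutants and 59.5, 54 and 67.0 in UNC0642 mutants, and Unc13c, best known from cerebellum, had 42.2, 43.4 and 44.0 in wild type, 28.1, 31.3 and 29.4 in saline mutants and 27.1, 33.2 and 54.4 in UNC0642 mutants. Unc13a was lower than wild type in all 6 mutant libraries. Unc13c was lower in the saline mutants and in UNC0642 replicates 1 and 2, but in UNC0642 replicate 3 it was higher than in any other library. Its log2 difference of saline mutants from wild type, -0.54 ± 0.18 (SE; limma, adjusted p = 0.0612), did not pass and turned to 0.31 with the side of the division as a term and to 0.02 on the deposited values.

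The ELKS scaffolds differed from each other: Erc1 had RPM of 82.3, 92.0 and 90.2 in wild type, 78.7, 77.0 and 78.5 in saline mutants and 79.1, 74.9 and 83.2 in UNC0642 mutants, and Erc2, the brain-specific form, had 170.5, 172 and 171 in wild type, 185, 162 and 184 in saline mutants and 174, 175 and 174 in UNC0642 mutants. Erc1 was lower in every saline mutant, and Erc2 overlapped between saline mutants and wild type. The 3 endocytosis genes did not pass. Dnm1, neuronal dynamin, ranged from 1162 to 1474 in wild type and from 1351 to 1400 in saline mutants; Amph, amphiphysin, was 226 to 246 in wild type and 258 to 281 in saline mutants, without overlap; Synj1, synaptojanin, was 437 to 498 and 437 to 461.

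**Figure D3:**
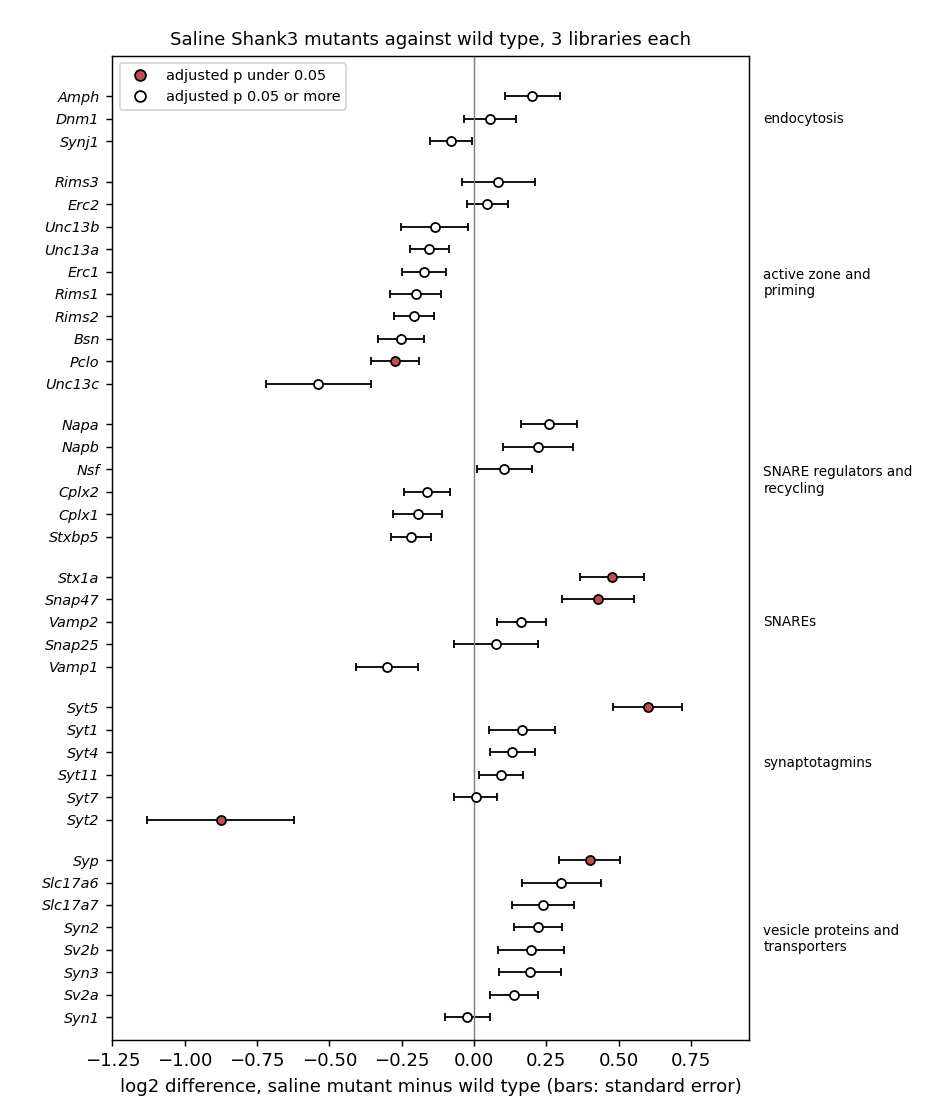
Points give the log2 difference of each gene between saline mutants and wild type with its standard error from limma, filled where the adjusted p is under 0.05. The 6 filled genes are Syp, Syt5, Stx1a, Snap47, Pclo and Syt2. Below 0 lie 8 of 10 active zone genes, and above it 7 of 8 vesicle proteins. All 10 active zone genes are in the longest of 4 length classes, where the median of all genes was -0.18.

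Transcript length ran alongside these differences. Across 13895 genes with a length the Spearman correlation of exon length with the log2 difference of saline mutants from wild type was -0.39, and across the 38 members it was -0.58; genes share the same 9 libraries and are not independent, so no p is given. The median difference of all genes went from 0.16 in the shortest of 4 length classes of equal size through 0.04 and -0.05 to -0.18 in the longest. The 4 members in the shortest class had a median of 0.45, and the 21 in the longest one of -0.14. Syt5, Snap47 and Stx1a have 2380, 2651 and 2666 bases of exon and were higher, whereas Pclo, Unc13b, Stxbp5, Erc1 and Bsn have 22457, 22746, 16513, 16271 and 15938 and had differences below 0. Cplx1, with 2189 bases and a difference of -0.20, and Syn3, with 12282 bases and 0.19, went the other way. In single libraries the correlation of length with the deviation from the mean of all libraries was 0.27 to 0.33 in wild type and 0.30 in UNC0642 replicate 3, and -0.32 to -0.24 in the saline mutants and UNC0642 replicates 1 and 2, so length moved with the division of the libraries. Its part in the members' differences was not tested.

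**Figure D4:**
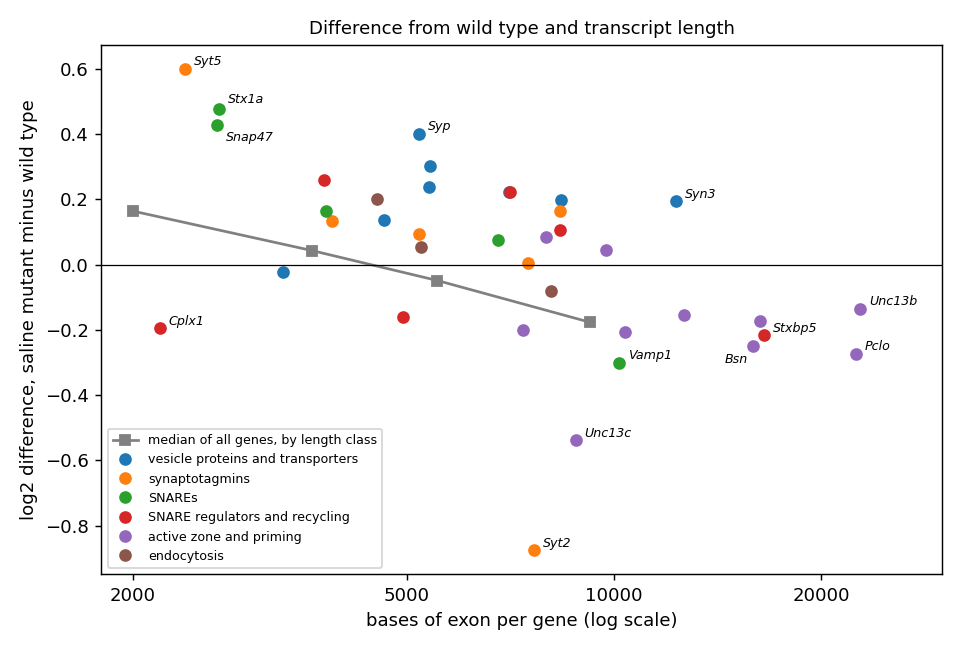
Each point is a member, by its bases of exon (horizontal, log scale) and its log2 difference of saline mutants from wild type, coloured by role; grey squares are the medians of all genes in each of 4 length classes. Short genes such as Syt5, Stx1a and Snap47 lie above the grey line and above 0, and the longest genes, among them Pclo, Unc13b and Bsn, lie below 0.

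Ratios of related genes within a library are free of that library's scaling. They are not free of the trend with length above where the 2 genes differ in length. Vamp2 and Vamp1 have 3809 and 10167 bases of exon, and Syn1 and Syn2 have 3299 and 7031. The part of length in the ratios was not tested. Per kilobase in wild type, Slc17a7 exceeded Slc17a6 by 165-fold, Syt1 exceeded Syt2 by 121-fold, Syn1 exceeded Syn3 by 47.1-fold and Vamp2 exceeded Vamp1 by 28.5-fold. Unc13a stood 13.8-fold over Unc13b and 8.26-fold over Unc13c, Rims1 6.12-fold over Rims3, Erc2 3.25-fold over Erc1 and Snap25 3-fold over Snap47. Smaller ratios were 2.99 for Syt1 to Syt7, 2.89 for Syt1 to Syt5, 2.89 for Bsn to Pclo, 2.3 for Rims1 to Rims2, 2.29 for Syt11 to Syt4, 2.09 for Syn1 to Syn2 and 1.49 for Napb to Napa. Cplx2 and Cplx1 did not differ beyond their spread (log2 ratio -0.11 ± 0.21, SD, n = 3). Sv2a stood 1.19-fold over Sv2b (0.25 ± 0.08), an order that turned with the longest transcript as the length (-0.25). With that length the log2 ratio of Syn1 to Syn3 was 4.21 in place of 5.56, that of Syn1 to Syn2 0.22 in place of 1.07, that of Rims1 to Rims2 0.28 in place of 1.20, that of Syt1 to Syt7 2.20 in place of 1.58 and that of Syt1 to Syt2 7.55 in place of 6.92.

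Of the 18 ratios, 7 did not overlap between saline mutants and wild type, each with an exact two-sided permutation p of 0.1, the smallest that 3 against 3 libraries allow. Over the 54 tests of this kind the adjusted p was 0.386. Among all single genes 40.7% did not overlap in this comparison, and no such share is given for ratios of other genes. The log2 ratio of Syn1 to Syn2 was 1.03, 1.09 and 1.08 in wild type, 0.81, 0.81 and 0.85 in saline mutants and 0.87, 0.89 and 0.87 in UNC0642 mutants. Here UNC0642 replicate 3 lay with the other treated libraries, and all 6 mutant libraries lay below wild type. For Snap25 to Snap47 it was 1.61, 1.65 and 1.49 in wild type, 1.22, 1.18 and 1.29 in saline mutants and 1.32, 1.32 and 1.37 in UNC0642 mutants, again with no overlap between mutant and wild-type libraries. The Vamp2 to Vamp1 ratio was 4.90, 4.69 and 4.89 in wild type, 5.39, 5.38 and 5.12 in saline mutants and 5.30, 5.11 and 5.48 in UNC0642 mutants, higher in all 6 mutant libraries.

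The ratio of Syt1 to Syt2 was likewise higher in all mutant libraries, with group means of 6.92 ± 0.22, 8.01 ± 0.48 and 7.85 ± 0.38 (SD, n = 3). That of Erc2 to Erc1 had means of 1.70 ± 0.08, 1.92 ± 0.09 and 1.88 ± 0.08. For Syt1 to Syt5 the means were 1.53 ± 0.15, 1.10 ± 0.14 and 1.17 ± 0.17, with UNC0642 replicate 3 at the lowest wild-type value. For Unc13a to Unc13c they were 3.05 ± 0.08, 3.44 ± 0.05 and 3.06 ± 0.52, where UNC0642 replicate 3, at 2.48, lay below wild type. On the deposited values, whose shift narrows this comparison, the differences between saline mutants and wild type were smaller: -0.09 in place of -0.24 for Syn1 to Syn2, -0.12 in place of -0.35 for Snap25 to Snap47, 0.18 in place of 0.47 for Vamp2 to Vamp1, 0.25 in place of 1.10 for Syt1 to Syt2 and -0.11 in place of -0.44 for Syt1 to Syt5. The other 11 ratios overlapped between these groups.

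**Figure D5:**
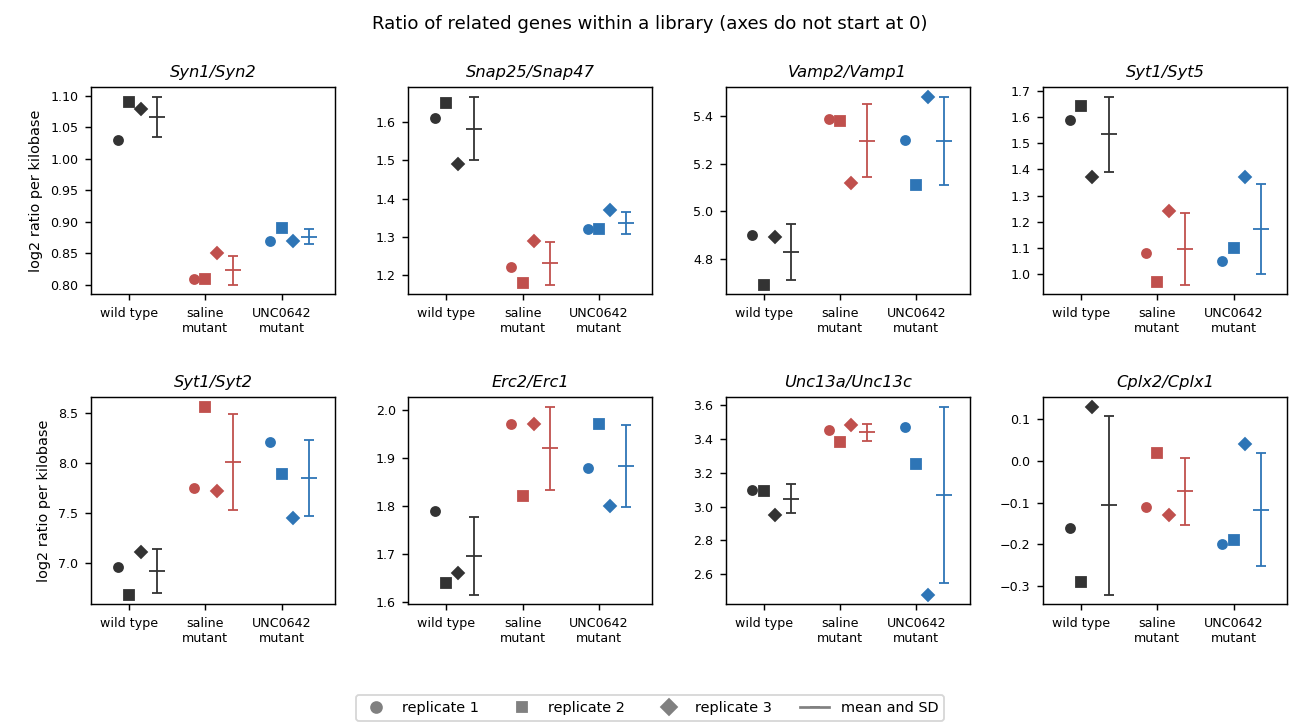
The log2 ratio per kilobase of 8 pairs of related genes in each library, with group mean and SD; the vertical axes do not start at 0. For Syn1 to Syn2, Snap25 to Snap47 and Vamp2 to Vamp1 the 6 mutant libraries lie apart from wild type, for Unc13a to Unc13c UNC0642 replicate 3 lies below all others, and Cplx2 to Cplx1 overlaps throughout.

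UNC0642 against saline in the mutants gave no call. By limma 0 of 38 members and 0% of all genes passed, with 0 members and 533 genes below 0.05 before adjustment, and limma-voom also called 0 members. The deposited values likewise gave 0 members and 0% of genes, with 0 members and 281 genes below 0.05 before adjustment. The median difference of the members was -0.03, against 0.02 over all genes, and 11 of 38 were above 0. The 4 members of smallest p were Rims2 (0.12 ± 0.07, SE), Unc13c (0.30 ± 0.18), Stx1a (-0.17 ± 0.11) and Snap47 (-0.15 ± 0.12), each with a limma adjusted p of 0.99, and their libraries are given above. Rims2 alone did not overlap between treated and saline mutants, against 9.69% of all genes. In Unc13c, Stx1a and Snap47, UNC0642 replicate 3 lay apart from the saline range and replicates 1 and 2 lay within or near it. Among the 5 mutant libraries on the same side of the division (3 saline, UNC0642 replicates 1 and 2), 0 members and 0% of genes passed, 0 members had an unadjusted p under 0.05, and the median of the members was -0.008.

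UNC0642 mutants against wild type, a comparison that shares its controls with the first, also gave 0 members, beside 8 genes or 0.0554% of all, with 13 members below 0.05 before adjustment; limma-voom called 0 members. On the deposited values 0 members and 0% of all genes passed, with 5 members below 0.05 before adjustment. The 4 members of smallest p were Syt5 (0.53 ± 0.12, SE; 0.60 in saline mutants), Vamp1 (-0.37 ± 0.11; -0.30), Bsn (-0.27 ± 0.08; -0.25) and Syp (0.34 ± 0.11; 0.40), with limma adjusted p from 0.118 to 0.142. Without UNC0642 replicate 3, 14 members passed beside 20.9% of all genes. Groups did not overlap for 10 members, against 17.5% of all genes. Of the 22 members whose saline mutant and wild-type libraries were apart, UNC0642 replicate 1 was nearer the saline mutant mean for 22, replicate 2 for 20 and replicate 3 for 8. Over the 5874 genes apart in this way, replicates 1, 2 and 3 were nearer wild type for 14.9%, 16.7% and 78.1%. In 6 of the 22, Syt2, Vamp1, Cplx1, Cplx2, Unc13a and Bsn, all 3 treated libraries were nearer the saline mutants. No share of all genes is given for that count.

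Of 99 other genes of vesicle fusion and recycling, 95 were measured, and in saline mutants against wild type 10 rose and 6 fell, 16 of 95 beside the 13.9% of all genes. By limma 0 of the 95 passed on the deposited values (0 with an unadjusted p under 0.05), and 0 with the side of the division as a term (4 unadjusted). The 16 became 0 without wild-type replicate 2, saline mutant replicate 1 or saline mutant replicate 3, 7 without wild-type replicate 3, 9 without saline mutant replicate 2, 26 without wild-type replicate 1 and 33 without UNC0642 replicate 3. The 4 of smallest p were Syt17, Stxbp5l, Fcho2 and Syt6. Syt17, a synaptotagmin relative, had 52.9, 45.5 and 60.0 in wild type, 90.0, 71.8 and 74.0 in saline mutants and 72.9, 64.5 and 67.6 in UNC0642 mutants RPM, above wild type in all 6 mutant libraries (0.57 ± 0.11, SE; limma, adjusted p = 0.0156). Stxbp5l, the second tomosyn gene, had 194, 214 and 188 in wild type, 141, 158 and 153 in saline mutants and 153, 166 and 185 in UNC0642 mutants, lower in every mutant library (-0.40 ± 0.09, SE; limma, adjusted p = 0.0176). Fcho2, an early endocytosis factor, had 43.3, 52.2 and 61.5 in wild type, 32.8, 34.4 and 29.1 in saline mutants and 35.1, 36.6 and 51.7 in UNC0642 mutants, with UNC0642 replicate 3 again in the wild-type range (-0.69 ± 0.15, SE; limma, adjusted p = 0.018). Syt6, another synaptotagmin, had 34.6, 33.5 and 29.2 in wild type, 20.7, 24.6 and 23.1 in saline mutants and 29.4, 29.8 and 25.1 in UNC0642 mutants, and the treated libraries lay between the other groups or reached wild type (-0.50 ± 0.11, SE; limma, adjusted p = 0.0187). On the deposited values the differences of Syt17, Stxbp5l, Fcho2 and Syt6 were 0.15, -0.08, -0.13 and -0.19, and with the division as a term 0.55, -0.19, -0.16 and -0.73, none called (limma, adjusted p of 0.788 or more). In the 2 comparisons with UNC0642 0 of the 95 passed, also on the deposited values, with 3 below 0.05 before adjustment against saline and 26 against wild type (0 and 6 on the deposited values). Against saline the smallest p belonged to Syt6 (0.29 ± 0.11), Sh3glb2 (-0.18 ± 0.07) and Fcho2 (0.34 ± 0.15), each with a limma adjusted p of 0.99.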

How the data were processed

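Total RNA libraries were stranded, made after ribosomal depletion and read with cutadapt, TopHat2 and HTSeq on mm9, per the submitters' processing notes and the labels' protocols; their versions, the strand setting and the normalization are not stated there. The deposited values, named CPM by the authors, are a signal per gene and not plain CPM: of 255 ways to divide the libraries in 2, exactly 1 made the mean log2 value the same on both sides for each gene (largest gap 2.5e-09; next best 0.87). Solving each gene for its shift, with a mean prior of 3.0 reads and a value of 0.2187 for 0 reads, made 100% of values whole within 0.02 reads for 14444 of 14444 genes; this step and the limma fit were tested on simulated data.

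Groups were compared with limma (3.58.1, in R 4.3.3) on log2(recovered RPM + 0.5), with its intensity trend, over all 9 libraries, with no term but the group, and p-values were adjusted by Benjamini-Hochberg over all genes; a gene was called at an adjusted p under 0.05. The fold scale understates low genes. The members and lists were chosen with earlier results of these data known, as was the division of the libraries, so no set test was made. All members could be named; values in every library are given for the genes of 18 pairs, for members called or, under 4, the 4 of smallest p, and for up to 4 other pathway genes. Some values of genes outside this rule are given as ranges. Exon lengths came from GENCODE M21 (13895 genes, 38 of 38 members) and upstream sequences from RefSeq on GRCm38.p6; neither is on the build of the deposited values, so only lengths, symbols and those sequences were used. Permutation tests used scipy 1.17.1; the rest was done in Python 3.11.15 with pandas 2.3.3, numpy 2.4.6 and matplotlib 3.10.9. Alternatives were the deposited values, the division as a term, pseudocounts of 0.1 and 2, at least 1 RPM in at least 3 libraries, median-of-ratios factors, limma-voom, only the 2 groups compared, a replicate block, each library left out, an adjusted p under 0.1, the 5 mutant libraries on the same side, and the longest transcript as length. Library sizes implied by the deposited values were added after seeing the data.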

Additional observations from a re-analysis of the deposited data

How the results depend on the processing

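For saline mutant against wild type, members called went from 6 to 0 on the deposited values and to 0 with the division as a term, and to 13 at an adjusted p under 0.1 (24.7% of all genes, against 13.9%) and 13 with only the 2 groups compared (21.8%); leaving out 1 library gave 0 to 15. Their median log2 difference of 0.08 became 0.007 on the deposited values and -0.03 with the division as a term, and 0.02 to 0.14 with 1 library left out. Of the 19 members with an unadjusted p under 0.05 here, the division as a term turned Slc17a7 (-0.059), Snap47 (-0.009), Napa (-0.11), Unc13c (0.31), Rims1 (0.078) and Pclo (0.008). The deposited values turned Unc13c (0.021) of these 19. Among the other members, the division as a term turned Sv2b (-0.076), Syt1 (-0.058), Snap25 (-0.311), Nsf (-0.083), Napb (-0.041), Unc13b (0.102), Rims3 (-0.103) and Amph (-0.155). There the deposited values turned Syt7 (-0.005), Snap25 (-0.039), Rims3 (-0.052) and Dnm1 (-0.006). For UNC0642 against saline, the deposited values turned, among others, Unc13c (-0.078), Stx1a (0.075), Snap47 (0.071), Syn2 (0.012) and Fcho2 (-0.04), with no member called under any setting run. Members above 0 went from 11 to 21 of 38 there, and Syt5 (0.228) and Syt2 (-0.298) also turned. For UNC0642 mutant against wild type, leaving out 1 library gave 0 to 14 members called, and a median from 0.004 to 0.10. The paralog ratios that turned were Sv2a to Sv2b in wild type with the longest transcript as length (-0.25) and, on the deposited values, the differences of Unc13a to Unc13c between saline mutant and wild type (-0.082), and of Syn1 to Syn2 (-0.05) and Snap25 to Snap47 (-0.054) between UNC0642 and saline. On the deposited values the shift itself narrows the difference between saline mutants and wild type. It also enters the difference between UNC0642 and saline, as it moves UNC0642 replicates 2 and 3 the opposite way to the saline mutants. For Syp, UNC0642 replicate 2 went from 1774 RPM to a deposited 1967, and saline mutant 1 from 1751 to 1580. The cause of the changes under other settings was not tested. The other settings kept the counts within 1.5 times and the medians within 0.052, the spread between libraries; the low-value filter removed no gene. The single-gene checks cover 41 results and not every member in every comparison. Of these 788 checks, 682 kept direction and side of the threshold, 63 lost it, 31 gained it and 12 turned.

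With a replicate block 9 members and 28 of the 95 other pathway genes (18.7% of all genes) were called for saline mutant against wild type, 0 for UNC0642 against saline (2 of all genes) and 1 for UNC0642 mutant against wild type. Deviations of same-numbered libraries from their group means correlated from -0.15 to 0.32, over 0.1 in 3 of 9 pairs. Of 18 best matches, 7 were to the same number. With 3 libraries per group these values cannot decide whether the numbers pair the libraries. Genotype and the division of the recovered reads differ in a single library, UNC0642 replicate 3, while the division behind the deposited values also places UNC0642 replicate 2 with wild type, and Syt2, with 62 to 199 reads, is the member most limited by depth.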
